A study of Mus musculus with 4 samples.

Results

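Genes of splicing and RNA-binding factors were examined in the 5′ ends of muscle transcripts from mice with and without AMPKα2. The genes were chosen by symbol: SR proteins (Srsf followed by a number), heterogeneous nuclear ribonucleoproteins (Hnrnp), RNA-binding motif proteins (Rbm followed by a number), Rbfox, muscleblind-like (Mbnl) and Celf proteins, and the SF3a and SF3b subunits. These symbols held 562 of the 42207 alternative start sites (ASSs) and 70 of the 9838 genes with a site. Of the 562 sites, 560 lay on primary chromosomes and 2, both of Srsf1, on an unplaced or alternate scaffold.

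Whole transcriptome start site sequencing (WTSS-seq) was applied to total RNA of gastrocnemius muscle from adult male C57BL/6 mice of about 8 weeks. There were 2 libraries from AMPKα2 knockout mice (KO), in which a part of the catalytic domain of Prkaa2 is deleted in the whole body, and 2 from wild-type mice (WT). In this method RNA depleted of rRNA is reverse transcribed with template switching, and the PCR product is read from the side of the RNA's 5′ end. Each read thus gives the first base of an RNA molecule, which may be a fragment. Each library is described as 1 mouse, and no treatment was applied.

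Splicing removes introns from pre-mRNA and joins exons. The SF3 subunits belong to the U2 snRNP, which recognises the branch point. SR proteins mostly bind exons and favour their inclusion, whereas many hnRNPs oppose it. In skeletal muscle MBNL, CELF and RBFOX proteins and some RBM proteins help to set which exons of sarcomere and calcium-handling genes are kept. MBNL and CELF proteins often act on the same exons in opposite directions.

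The libraries held 1300069 to 2900279 reads, with more in either KO library than in either WT library. Reads were scaled to a normalized read count by the size factors of DESeq2. The reads of Prkaa2 summed over its 19 sites did not separate the genotypes, with normalized counts of 149 and 183 in KO and 153 and 186 in WT (log2 fold change of KO over WT -0.03, SE 0.50, DESeq2 adjusted p = 0.994). The deleted part was given as a stretch of the protein and was not placed on the genome here, so this sum does not check the labels. Among the 19 sites, 2 intronic ones had 0 reads in both KO libraries. In WT they held 19 and 4 reads at chr4:105047709-105047713 and 5 and 8 reads at chr4:105055554-105055585. Other intronic sites had 0 reads in both WT libraries. In KO these held 3 and 12 reads at chr4:105058220-105058248, 11 and 10 at chr4:105058471-105058499 and 10 and 0 at chr4:105103115-105103117.

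The sites of the splicing factor genes lay mostly inside introns. Of the 562 sites, 343 (61.0%) were intronic (class code i), 181 (32.2%) were contained in an annotated transcript (c), 24 overlapped an exon and an intron (e), 9 overlapped an exon otherwise (o), 4 lay just outside a gene (p) and 1 was antisense to an exon (x). Among all sites with a gene, 52.0% were intronic and 38.6% contained. Intronic sites took 75.5% of the 49960 reads of these genes, from 62.4% in WT replicate 2 to 80.6% in KO replicate 1. Without the most abundant site they took 67.6%. Over all sites with a gene the intronic share of reads was 20.4%, or 33.7% without mitochondrial and rRNA genes. Of the 562 sites, 12 lay on the strand opposite to their gene and 32 overlapped another RefSeq gene. The opposite-strand sites include intronic ones, such as the only site of Celf3. All were kept in the counts and in the sums per gene.

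The families differed in this share. Intronic sites made up 47 of 51 in the CELF genes (92.2%), 57 of 71 in the RBFOX genes (80.3%), 94 of 122 in the MBNL genes (77.0%) and 79 of 131 in the RBM genes (60.3%). They made up 13 of 29 in the SR genes (44.8%), 11 of 28 in the SF3 genes (39.3%) and 42 of 130 in the hnRNP genes (32.3%). Celf2 alone held 50 of the 51 CELF sites, and Mbnl1 and Mbnl2 held 80 and 41 of the 122 MBNL sites. The RBFOX sites came from Rbfox1 and Rbfox2. All of these genes are long, from 156 kb (Mbnl2) to 1528 kb (Rbfox1). Sites of one gene share its sequence and length, so these shares are given as a description.

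**Figure D1:**
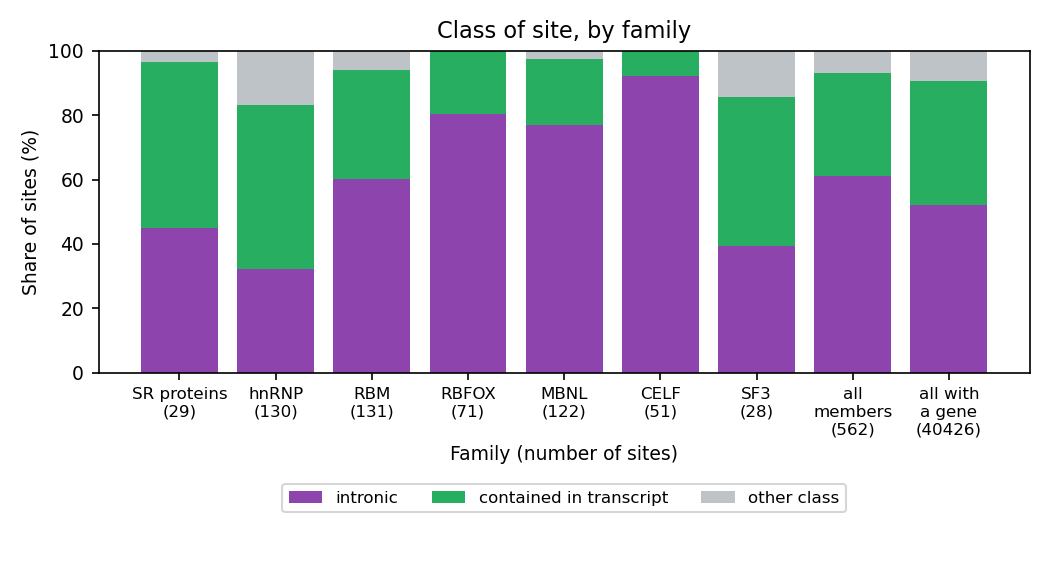
Share of sites (%, vertical axis from 0 to 100) that were intronic, contained in an annotated transcript or of another class, for each family (horizontal axis, number of sites in brackets), for all 562 sites and for all 40426 sites with a gene. The CELF bar is 92.2% intronic and the hnRNP bar 32.3%.

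Intronic sites were narrow. Their median width was 10 bp, against 27 bp for contained sites, and over all genes the medians were 7 bp and 25 bp. Intronic sites were spread along the genes. When each gene was divided into 5 equal parts, 17.8% of them lay in the part nearest the 5′ end and 21.6% in the part nearest the 3′ end, whereas over all genes the shares were 24.9% and 13.9%. Of the contained sites 43.6% lay in the part nearest the 3′ end, against 55.1% over all genes.

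Few sites coincided with an annotated transcription start. RefSeq windows around starts (GRCm38.p6) were held for 60 of the 70 genes. Of the 487 sites with such a start on their own chromosome and strand, 15 (3.08%) lay within 100 bp of it, against 3.18% of 28681 sites over all genes. These 15 sites belonged to 15 different genes, held 10 to 59 reads each and took 0.83% of the reads, against 8.85% over all genes. Without the most abundant such site of either set the shares were 0.701% and 4.61%.

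The start regions are shown for the 9 of these sites that had 20 bases before and 9 bases after the site inside the RefSeq window. All of these sites lay within 100 bp of an annotated start. Each sequence is 30 bases of GRCm38.p6 from RefSeq on the strand of the gene, and the capital marks the position given for the site.
Rbm5, chr9:107770995-107771024, minus strand: gtgggggaaggtcgacgcgcGagggactgt
Mbnl2, chr14:120275647-120275676, plus strand: gggctgagcctgggcggggcCtgtgggaag
Hnrnpa2b1, chr6:51469882-51469911, minus strand: gacgtaagcggagacgcgttAgtgggggga
Srsf5, chr12:80945519-80945548, plus strand: cgagctgctaagtgcgtcagTtgtggagag
Hnrnph3, chr10:63023852-63023881, minus strand: ggctgcgcagctcctagagcGgttggcgcg
Hnrnpd, chr5:99978917-99978946, minus strand: tccgtcggccattttaggtgGtccgcggcg
Rbm26, chr14:105177283-105177312, minus strand: atttaccggcagccatcttcTtgggggtgc
Rbm38, chr2:173021904-173021933, plus strand: aggcggccggcagctcgcagGgcgcggagt
Hnrnpa1, chr15:103240408-103240437, plus strand: agggcgagcagaaggtaggcTggcgggcac

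The sites of Rbm5 and Mbnl2 lay 2 bp before the annotated start, that of Hnrnpa2b1 3 bp after it and that of Srsf5 40 bp after it. They held 55, 33, 20 and 45 reads over the 4 libraries. The site of Hnrnph3 lay 12 bp before the annotated start. Those of Hnrnpd, Rbm26, Rbm38 and Hnrnpa1 lay 12, 22, 22 and 31 bp after it. Each of these held only 10 or 11 reads, and the lowest total of a site is 10. In the 300-base RefSeq windows of these genes (89 windows, 250 bases before to 50 after a start), GGGCGG on either strand was present in 58.4%, CCAAT in 44.9% and TATAAA in 12.4%. Over all 32851 windows the shares were 35.7%, 37.4% and 13.6%. The median G and C content was 61.0% against 52.7%, and a match of these letters is a description of the window only.

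Reads were concentrated in few sites. The most abundant site, in an intron of Hnrnph1, held 12095 reads (24.2% of all reads of these genes), and the 10 most abundant sites held 46.4%. The 10 genes with most reads held 68.5%. In 32 of the 57 genes with more than 1 site, a single site held at least 50% of the gene's reads. A gene with 2 sites always meets this limit, and such genes are among the 32. The genes had a median of 4 sites, against 2 over all genes, and 17 of 70 (24.3%) had 10 or more, against 9.18% of all genes. Ranks by reads below are not per length, so they do not order the genes by transcript level.

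Hnrnph1, whose product binds G-rich RNA, led with 13562 reads at 10 sites. Its main site, at chr11:50382452-50382469 and 7.2 kb into a gene of 11.3 kb, held 5201 and 3370 reads in KO against 2357 and 1167 reads in WT. After scaling these were 3413 and 2908 in KO and 3198 and 1348 in WT, so the groups overlapped (log2 fold change 0.48, SE 0.60, adjusted p = 1). This site was the most abundant one of the gene in all 4 libraries. A second intronic site, at chr11:50379387-50379391, held 154 and 77 reads in KO against 708 and 37 in WT, and its level rested on WT replicate 1 (adjusted p = 0.162).

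Hnrnpa2b1, which encodes an abundant nuclear RNA-binding protein, had 15 sites and 5516 reads. Its main intronic site at chr6:51465011-51465053 held 1482 and 943 reads in KO against 937 and 551 in WT. The whole gene stood at 1153 and 1286 normalized counts in KO and 1702 and 1174 in WT, with overlapping groups.

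Mbnl1, the main muscleblind protein of adult muscle, had 80 sites over 157 kb, the most of these genes, and 3957 reads. Its most abundant site, contained in a transcript at chr3:60529571-60529577, held 15.9% of them. Rbfox1, which spans 1528 kb, had 46 sites, and the one nearest to its 5′ end already lay 77.8% along the gene. The intronic site at chr16:7293937-7293962 held 40.0% of its reads (433 and 155 in KO, 67 and 112 in WT) and was its leading site in every library.

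**Figure D2:**
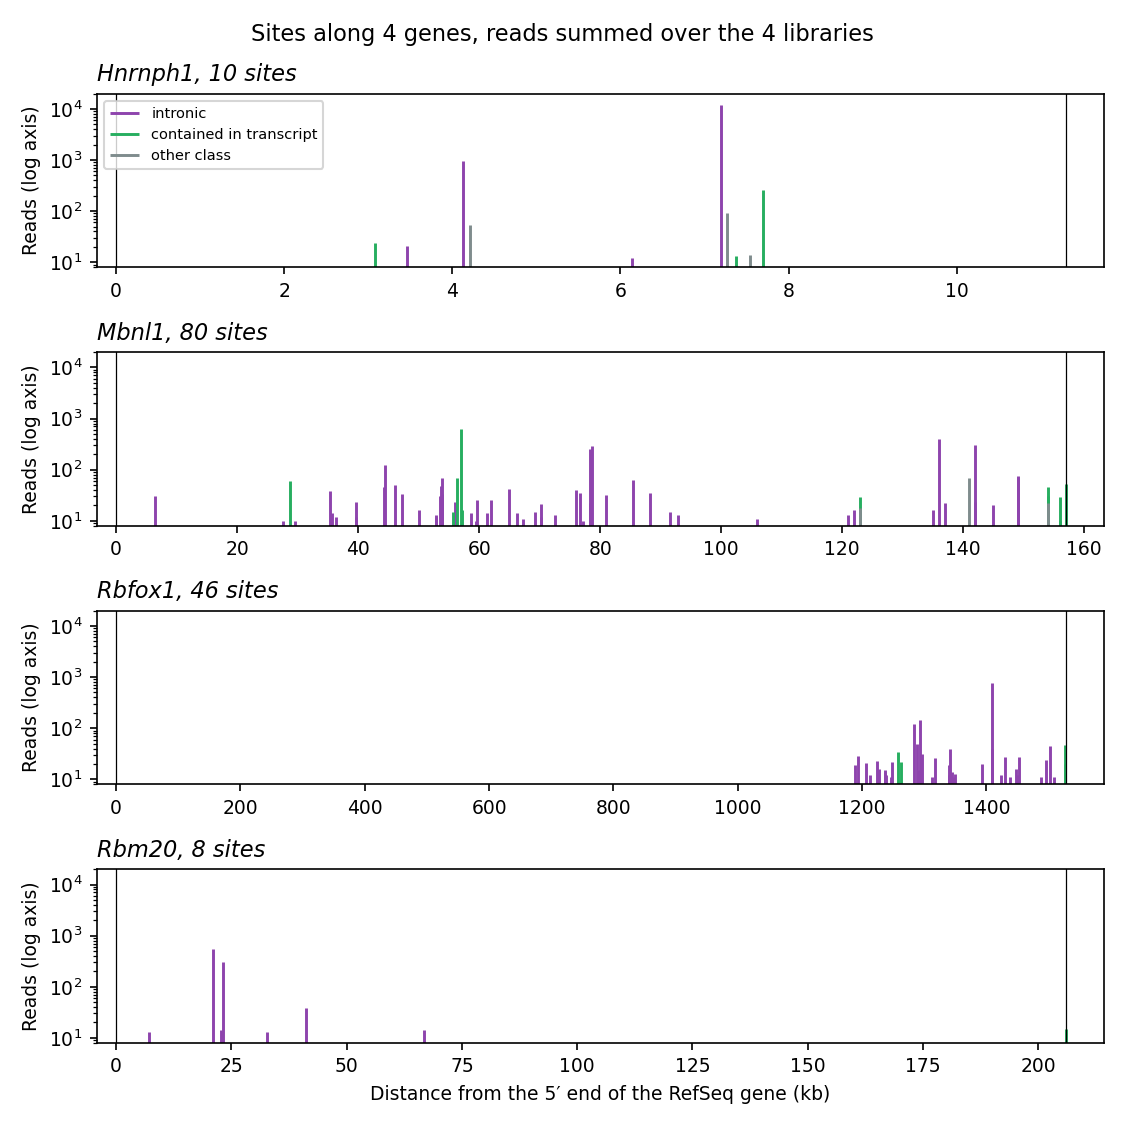
Reads per site summed over the 4 libraries (log axis from 8 reads) against distance from the 5′ end of the RefSeq gene (kb) for Hnrnph1, Mbnl1, Rbfox1 and Rbm20, coloured by class, with thin vertical lines at the gene's ends. One site holds 89.2% of the Hnrnph1 reads, while the 46 Rbfox1 sites lie in the last part of the gene.

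Rbm24 is a muscle-enriched splicing factor, and its leading site was contained in a transcript. The 221 bp site at chr13:46429375-46429595 held 64.2% of its 2458 reads, with 487 and 512 reads in KO against 202 and 377 in WT. In WT replicate 1 an intronic site at chr13:46423159-46423163 was higher, with 263 reads, against 5 reads in WT replicate 2. Of the 24 genes with at least 500 reads and more than 1 site, 13 had the same leading site in all 4 libraries.

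SR protein genes were sparsely covered. Srsf5 held 245 reads, Srsf11 227, Srsf7 113, Srsf1 27, Srsf2 24 and Srsf3 13. The 2 sites of Srsf2 held 18 and 6 reads in KO against 0 and 0 in WT, and the 2 scaffold sites of Srsf1 held 16 and 10 in KO and 0 and 1 in WT. Both genes were too low for an adjusted p. A library with 0 reads allows up to 3 reads, which is 1.03 to 2.31 ppm of a library's reads here, for counting error only.

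The first comparison was whether the summed level of these genes differed between KO and WT. Of the 70 genes, 48 passed the DESeq2 filter on mean count. Rbm20 was up-regulated and Sf3a2 was down-regulated (1 gene each, 2.08% of 48), against 1.71% of all 4688 tested genes called up and 0.96% called down. The median log2 fold change was -0.07 over the 48 genes and 0.01 over all tested genes, and 20 of 48 (41.7%) were higher in KO, against 50.5%. With an unadjusted p under 0.05 were 5 genes (10.4%), against 9.77% overall. The edgeR quasi-likelihood test called none of the 55 genes it kept, of which 6 had an unadjusted p under 0.05, and called 0.54% of all its genes up and 0.343% down.

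Normalized counts of both KO libraries were above both WT libraries in 9 of the 48 genes (18.8%, against 22% of all tested genes) and below them in 7 (14.6%, against 19.4%). In bulk muscle, fewer cells of a type and less RNA per cell cannot be told apart.

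**Figure D3:**
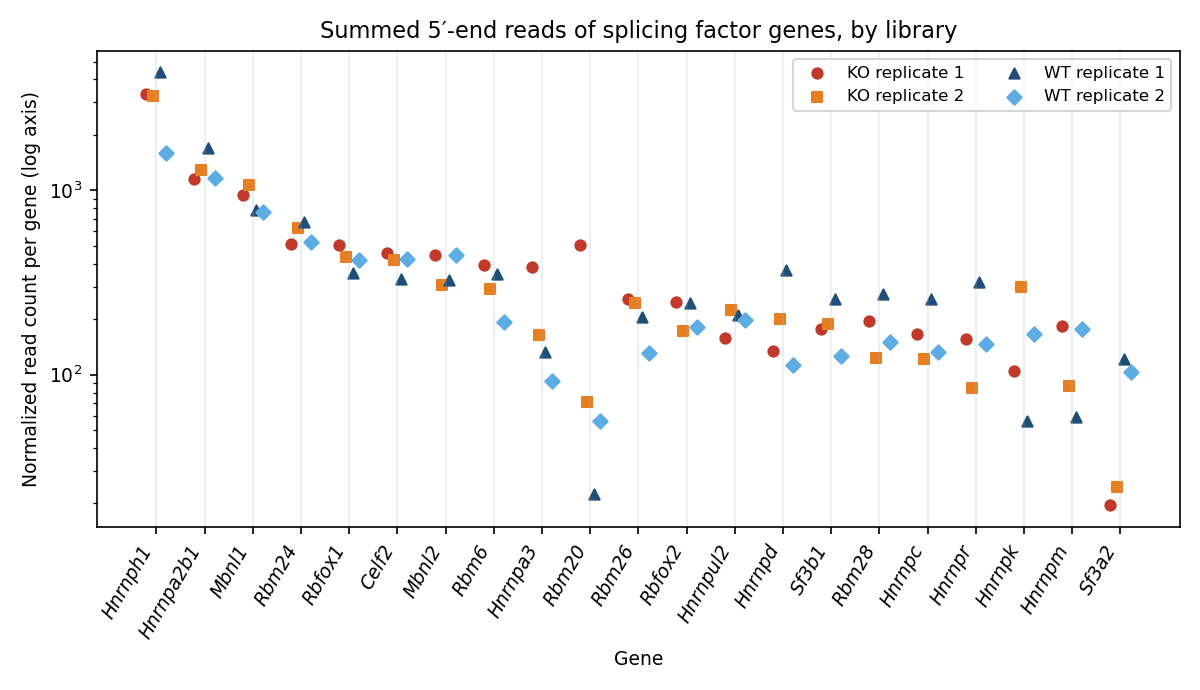
Normalized read count per gene (log axis) in each of the 4 libraries for the 20 genes with most reads and for Sf3a2. In Rbm20 the KO replicate 1 point stands at 503, far above the other 3, while the 2 KO points of Sf3a2 lie below both WT points.

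Sf3a2, a subunit of the SF3a complex, had 1 site, in an intron at chr10:80799469-80799491, 0.755 kb from the 5′ end of the gene. It held 32 and 28 reads in KO against 86 and 83 in WT, or 22 ± 3.48 against 112 ± 12.2 normalized counts (SD, n = 2). The 2 KO libraries were both lower and the groups did not overlap. The log2 fold change was -2.35 (SE 0.65, DESeq2 adjusted p = 0.02, edgeR adjusted p = 0.101), so the call was lost with edgeR. It was also lost when any one library was left out, although the log2 fold change then stayed between -2.51 and -2.19. As a single site among all sites it did not pass, with an adjusted p of 0.108.

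The other SF3 genes did not pass. Sf3b1, the branch point-binding subunit, had 13 sites and stood at 176 and 189 normalized counts in KO and 257 and 126 in WT, so the groups overlapped. Sf3b2 stood at 7.94 and 33.2 in KO and 44.9 and 34.9 in WT (log2 fold change -0.97, SE 0.94, adjusted p = 0.909). Sf3a1, Sf3a3, Sf3b3 and Sf3b4 were below the filter.

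Among SR genes 4 were tested and none passed, 1 of them with an unadjusted p under 0.05. Srsf7 held 20 and 18 reads in KO against 62 and 13 in WT at 1 site, and only WT replicate 1 stood apart (log2 fold change -1.88, adjusted p = 0.505). Srsf5 stood at 66 and 41.9 normalized counts in KO and 33.7 and 81.0 in WT, and its leading intronic site at chr12:80948802-80948803 held 89, 41, 0 and 46 reads in KO replicates 1 and 2 and WT replicates 1 and 2. Srsf11 had overlapping groups too, with a log2 fold change of -0.23 (SE 0.70).

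Among hnRNP genes 16 were tested and none passed (1 with an unadjusted p under 0.05), with a median log2 fold change of -0.04 and 7 of 16 higher in KO. Hnrnpa3, a relative of Hnrnpa2b1, had the greatest positive log2 fold change of the family (1.28, SE 0.56, adjusted p = 0.356), with 628 and 188 reads in KO against 95 and 74 in WT. Its normalized counts, 384 and 164 in KO and 133 and 92.2 in WT, did not overlap. Hnrnpk, a poly(C)-binding protein, stood at 105 and 298 in KO and 56.1 and 167 in WT. Hnrnpa1, a well-known repressor of exon inclusion, had 11 low sites and stood at 57.5 ± 20 in KO and 57.3 ± 1.73 in WT. Hnrnpc, Hnrnpd, Hnrnpm and Hnrnpul2 had overlapping groups with adjusted p of 0.929 or more.

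Among RBM genes 20 were tested and Rbm20 alone passed. Rbm20 controls the splicing of titin and other sarcomere genes in striated muscle. It held 823 and 81 reads in KO against 16 and 45 in WT, or 503 and 70.8 against 22.4 and 56.0 normalized counts. Both KO libraries were higher, but KO replicate 2 was close to WT replicate 2. Mean KO exceeded mean WT by 2.87 on the log2 scale (SE 0.78, DESeq2 adjusted p = 0.0166). It was 0.86 (adjusted p = 0.999) without KO replicate 1 and 2.36 (adjusted p = 0.268) without WT replicate 1. With edgeR the adjusted p was 0.203.

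Rbm24 stood at 569 ± 79.6 in KO and 599 ± 104 in WT (SD, n = 2), a log2 fold change of -0.07 with an SE of 0.43. Rbm6, Rbm26 and Rbm28 gave log2 fold changes of 0.33, 0.58 and -0.41, and only in Rbm26 did the groups not overlap. Rbm38 had 1 site with 9 and 0 reads in KO against 0 and 1 in WT and was not tested. Rbm8a2, annotated by RefSeq as a pseudogene, and Rbm8a, which encodes an exon junction protein, are near-identical copies, so their reads may be shared.

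The tissue-type regulators of muscle splicing did not pass as whole genes. Mbnl1 stood at 949 and 1072 normalized counts in KO and 787 and 767 in WT, without overlap (log2 fold change 0.38, SE 0.40, adjusted p = 0.921). Rbfox1 stood at 506 and 436 in KO and 356 and 420 in WT, also without overlap (log2 fold change 0.28, SE 0.43). Mbnl2, Celf2 and Rbfox2 overlapped between groups, with log2 fold changes of -0.03, 0.21 and -0.02 and SEs of 0.44 to 0.50.

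**Figure D4:**
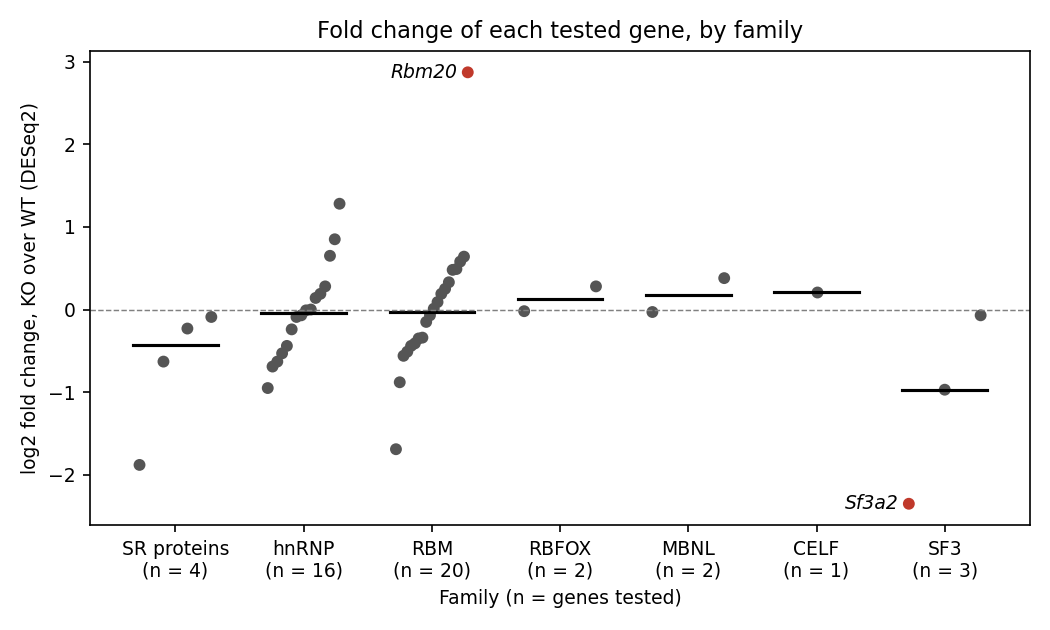
DESeq2 log2 fold change of KO over WT (vertical axis) for each of the 48 tested genes, by family (horizontal axis, number of genes tested in brackets), with a bar at the family median. Rbm20 at 2.87 and Sf3a2 at -2.35, in red, passed an adjusted p of 0.1.

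The second comparison was at single sites. Of the 562 sites, 162 were tested. Up-regulated were 3 sites (1.85%), against 2.33% of all 11112 tested sites, and down-regulated were 2 (1.23%), against 0.882%. The median log2 fold change over the 162 sites was 0.05, against 0.10 over all tested sites, and 16 sites (9.88%) had an unadjusted p under 0.05, against 9.63%. The edgeR test kept 161 of the sites and called none, with 11 at an unadjusted p under 0.05. Of the 5 DESeq2 calls it kept 2 and did not test the other 3 (Hnrnpr, Rbm33 and 1 of Rbm20), while over all 11242 sites it called 0.427% up and 0.285% down.

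Rbm20 carried 2 of the up-regulated sites, both in introns near the 5′ end of the gene. The one at chr19:53681990-53681992, 21.0 kb from the 5′ end, held 484 and 34 reads in KO against 8 and 22 in WT (log2 fold change 3.25, SE 1.00, adjusted p = 0.0523). The one at chr19:53684237-53684240 held 294 and 11 reads in KO against 0 and 5 in WT (log2 fold change 5.09, SE 1.36, adjusted p = 0.0154). In both, KO replicate 1 held most of the reads. Without it the log2 fold changes were 0.73 (adjusted p = 1) and 1.75 (no adjusted p). They held 56.8% and 32.1% of the Rbm20 reads.

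Rbm33, an RNA-binding protein linked to mRNA export, had 11 sites. Its site at chr5:28418684, contained in a transcript and 99.5% along the gene, gave 11 and 59 reads in KO but 0 in both WT libraries. The KO mean was at least 7.72-fold higher than the floor of 3 reads per WT library (log2 fold change 6.98, SE 2.06, DESeq2 adjusted p = 0.0384). The gene as a whole stood at 140 ± 59.0 in KO and 123 ± 22.4 in WT. The site's adjusted p was 1 without KO replicate 2, 0.146 without WT replicate 1 and 0.266 without WT replicate 2.

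Rbfox2, an RBFOX protein found in many tissues, had a down-regulated intronic site at chr15:77198245-77198255, 110 kb into the gene. It held 0 and 0 reads in KO against 17 and 11 in WT. By group means KO was at least 7.85-fold lower (log2 fold change -7.01, SE 2.2, DESeq2 adjusted p = 0.0627, edgeR adjusted p = 0.133). The call was lost when any single library was left out, although the log2 fold change stayed between -7.43 and -6.52. Without either WT library the site had no adjusted p. Another intronic site, at chr15:77300007-77300023, held 116 and 17 reads in KO against 4 and 0 in WT, but did not pass. The sum over the 25 sites of Rbfox2 was 209 ± 52.8 in KO and 213 ± 45.8 in WT.

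On chromosome 4, which also holds Prkaa2 far away (chr4:105029649-105109898), Hnrnpr had a down-regulated contained site at chr4:136336311-136336312. It held 3 and 1 reads in KO against 136 and 1 in WT (log2 fold change -6.00, SE 1.5, adjusted p = 0.00815). WT replicate 2 was as low as KO, and without WT replicate 1 the log2 fold change was 0.30. The leading site of Hnrnpr, in an intron at chr4:136313325-136313331, held 225 and 71 reads in KO against 84 and 91 in WT.

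Some sites were read in 1 genotype and hardly in the other. With at least 10 reads in each library of one group and at most 3 in each of the other, 13 sites were KO-sided (2.31%, against 1.83% of all sites) and 1, the Rbfox2 site, was WT-sided (0.178%, against 0.168%). The 5 KO-sided sites with the largest difference included the Rbm33 site and 4 that did not pass the test. The Mbnl1 intronic site at chr3:60608329-60608333 held 13 and 377 reads in KO against 0 and 0 in WT, nearly all from KO replicate 2. The KO mean was at least 44.3-fold higher (DESeq2 adjusted p = 0.208), a bound that does not hold for KO replicate 1 alone. The Hnrnpf intronic site at chr6:117909495-117909497 held 60 and 37 reads in KO against 0 and 3 in WT (log2 fold change 4.31, SE 1.47, adjusted p = 0.102). Celf2 had intronic sites at chr2:6881575-6881579, with 12 and 36 reads in KO against 3 and 3 in WT, and at chr2:6623238-6623250, with 11 and 30 against 2 and 3.

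**Figure D5:**
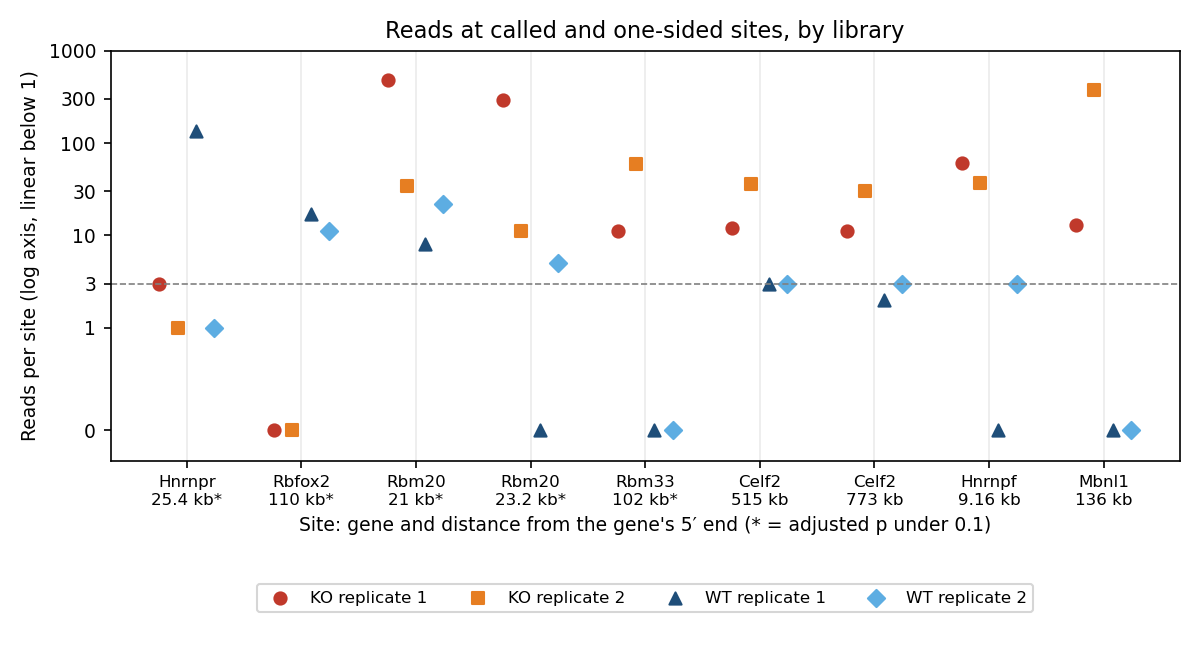
Reads per site (log axis, linear below 1, dashed line at 3 reads) in each library for the 5 called sites, marked with an asterisk, and the 4 one-sided sites that did not pass. Sites are named by gene and distance in kb from the gene's 5′ end, and at Hnrnpr and at both Rbm20 sites a single library stands far above the rest.

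Sites without any read in WT numbered 56 (9.96%, against 11.8% of all sites), and those without any in KO 14 (2.49%, against 2.29%). The table holds only sites with at least 10 reads in all, and the KO libraries are deeper, so this count favours sites missing in WT. KO replicates 1 and 2 held reads at 90.0% and 84.2% of the 562 sites, and WT replicates 1 and 2 at 75.8% and 77.2%. A single library held at least 80% of the normalized count at 14 of the 292 sites with 20 or more reads (4.79%, against 4.87% overall), of which 5 were KO replicate 1, 4 KO replicate 2 and 5 WT replicate 1.

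The third comparison was whether the use of sites within a gene differed. Among 34 of these genes with at least 2 sites above the filter, none was called by diffSpliceDGE of edgeR with the Simes method, against 1.4% of 2145 genes. At an unadjusted p under 0.05 there were 2 (5.88%, against 9.04%). They were Rbfox2 (adjusted p = 0.212) and Hnrnpf (adjusted p = 0.412). Of the sites called in the second comparison, only the Rbfox2 site was part of this test. Rbm20 was not among the 34 genes, and the called sites of Rbm33 and Hnrnpr did not pass the filter. The test therefore does not cover those sites. In Rbfox2, the site at chr15:77300007-77300023 differed from the rest of the gene by 3.05 on the log2 scale and that at chr15:77198245-77198255 by -4.81. With a minimum of 20 reads in total per site in place of the edgeR filter, Mbnl1 passed (diffSpliceDGE adjusted p = 0.0871). This filter is looser, as these genes have 292 such sites, against 161 kept in the edgeR test of single sites. Mbnl1 also passed without KO replicate 1 (adjusted p = 0.0154) and Hnrnpr without WT replicate 2 (adjusted p = 0.0354), but in these fits 1 group is a single library, assumed to vary like the other group.

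Other genes of the splicing machinery were read from lists by role. Of 72 core spliceosome genes 53 had a site and 32 were tested, with 0 up, 1 down and a median log2 fold change of 0.08. The one down-regulated gene was Dhx15, a helicase that releases spent spliceosomes, with 23 and 14 reads in KO against 46 and 54 in WT (log2 fold change -2.32, adjusted p = 0.0997, edgeR adjusted p = 0.158). Of 10 SR protein kinases, which phosphorylate SR proteins, 6 were tested and none passed (1 with an unadjusted p under 0.05, median 0.35). Of 58 further regulators 41 were tested, with 1 up, 1 down and a median of -0.14. Ptbp2, a polypyrimidine tract-binding protein, held 791 and 660 reads in KO against 140 and 66 in WT (log2 fold change 1.93, adjusted p = 0.0159, edgeR adjusted p = 0.179), and Thrap3, a factor of transcription and splicing, held 34 and 48 against 89 and 114 (log2 fold change -2.10, adjusted p = 0.0519, edgeR adjusted p = 0.158). Over all tested genes DESeq2 called 1.71% up and 0.96% down.

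A few markers of blood and immune cells and of fibroblasts differed between KO and WT. The marker lists were chosen with earlier results of these data known, so calls within them are a description only. All 14 skeletal muscle fibre markers had a site, and their summed normalized counts were 81126 and 94463 in KO and 73970 and 106385 in WT, with none called. The blood and immune list (7 of 9 genes with a site) summed to 129 and 142 in KO and 1572 and 1172 in WT, with Ms4a4b and Skap1 called down. Ms4a4b alone gave 1177 and 942 of the WT sums. The 5 remaining genes summed to 50.1 and 77.8 in KO against 202 and 133 in WT, and Ptprc gave 147 of the 202. The fibroblast list (10 of 10) summed to 3423 and 3453 in KO and 4956 and 4808 in WT, with Sparc called down. The adipocyte list (6 of 7) summed to 5910 and 3015 in KO and 5913 and 3339 in WT. Endothelial, Schwann and satellite cell lists had 6 of 6, 2 of 5 and 1 of 3 genes with a site and no call. The part of these cells in the levels of Sf3a2, Rbm20 and the called sites was not tested.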

How the data were processed

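WTSS-seq libraries of 2 KO and 2 WT mice were used. The authors deposited 1 table of raw read counts per clustered start site, with a gene symbol and a Cuffcompare class code. Coordinates are GRCm38, named GRCm38.p5 in the submitters' processing notes. The mapping and clustering settings were described for the sister 3′-end libraries and are not stated for these. No molecular identifiers were described, so PCR copies count as reads and floors cover counting error only. The lowest total of a site is 10 reads, and the line of column totals was dropped.

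KO and WT counts were tested in DESeq2 1.42.0 (Wald test, R 4.3.3) at a Benjamini-Hochberg adjusted p under 0.1, per site and on sums per symbol, over all sites or genes. The edgeR quasi-likelihood test (version 4.0.16) and diffSpliceDGE followed. Independent filtering kept mean normalized counts above 8.76 (sites) and 16.5 (genes). The scripts were tested on simulated data. Positions and windows came from RefSeq (Python 3.11.15).

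Members, lists and tests were chosen with earlier results of these data known. Named were genes with a call, the 20 with most reads, a list of muscle splicing factors, scaffold genes and up to 5 one-sided sites per direction. Prkaa2 and the called genes of the other lists were named too. Other genes were named after their values were seen. Replicates of KO and WT differed by more than sampling noise (chi-square per degree of freedom 10.5 and 6.46), so each library was 1 sample.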

Additional observations from a re-analysis of the deposited data

How the results depend on the processing

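Each result was recomputed with edgeR, TMM factors, no independent filtering, an adjusted p under 0.05, primary chromosomes only, a replicate block and without each library. Library totals as size factors were added after seeing the data. Of the main counts (3 sites up, 2 down, 1 gene up, 1 gene down), edgeR gave 0, 0, 0 and 0, but it tested only 2 of the 5 called sites. Without independent filtering 1 site was up and 1 down, and at an adjusted p under 0.05 1 site was down. Leaving out 1 library gave 1 to 2 sites up, 0 to 3 down, 0 to 1 gene up and 0 genes down. The Sf3a2 call was lost each time, at log2 fold changes of -2.51 to -2.19, and the Rbm20 gene call was lost without KO replicate 1 (0.86) or WT replicate 1 (2.36). The median log2 fold change of the genes ran from -0.17 without WT replicate 2 to 0.10 without WT replicate 1, where all genes stood at 0.07 and 0.10. Over the leave-one-out fits the log2 fold change of the Hnrnpr site ran from -7.04 to 0.30, the latter without WT replicate 1. The log2 fold change of the Mbnl1 site at chr3:60608329-60608333 was 10.50 without KO replicate 1, where KO replicate 2 alone made up the KO group. It was 5.19 without KO replicate 2. Genes with changed site usage numbered 0 to 1 over the leave-one-out fits and 1 with sites of at least 20 reads. Deviations of same-numbered libraries were only weakly correlated (r = 0.071 over 9857 sites). With 2 libraries a group this does not settle whether they were paired. With the replicate block 0 sites were up, 1 was down, 0 genes were up and 1 was down. Within 500 bp of a start lay 19 sites instead of 15. With at most 3 reads in place of 0, 185 sites (32.9%, against 35.2% of all sites) were near-absent in WT. In KO 61 were near-absent (10.9%, against 9%). Called sites had no adjusted p in 5 cases (Rbfox2 with the block and without either WT library, 1 Rbm20 site without KO replicate 1, Hnrnpr without WT replicate 1), and the counts above leave such sites out. With 2 libraries a group, 400 of the 562 sites were too low to test. The causes of these changes were not tested.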
